A study of Mus musculus with 12 samples.

Results

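The tissue difference between liver and white fat was measured in wild-type mice that received diphtheria toxin but carry no receptor transgene for it. Its levels and differences come from 6 of the 12 arrays of the series: 2 of liver, 2 of epididymal fat and 2 of inguinal fat, chosen by their titles. For each of the 22180 genes with a probe that carries a single gene symbol, the value is the liver mean minus the mean of both depots, each depot counted equally; 12710 of these genes were bright enough in at least 1 tissue to be tested. The other 6 arrays, of Mgl2-DTR mice, enter that filter and the shared estimate of the spread behind each SE and p-value.

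The study compared Mgl2-DTR mice, whose mononuclear phagocytes that express Mgl2 (the lectin CD301b) are killed by the toxin, with wild-type mice, which keep those cells. Its question was how fat and liver change when those cells are lost. All mice were males of matched age and the wild-type ones were C57BL/6N. Both genotypes received 500 ng of toxin in each injection into the abdomen, spaced 3 days apart, up to the harvest on day 10. Total RNA of whole tissue was hybridised to Affymetrix mouse gene arrays, with 2 arrays for each of the 6 groups of tissue and genotype. No array here comes from a mouse without toxin, so every value describes toxin-treated animals. The labels speak of a mouse per array but do not say that replicates, or the tissues of a replicate number, are separate animals, so a p-value here reflects only how far these samples scatter, which may be technical.

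Liver is built mainly of hepatocytes, which make most plasma proteins, turn ammonia into urea, release glucose, synthesise bile acids and clear drugs. White fat holds adipocytes, each filled by a lipid droplet wrapped in perilipins, which take up fatty acids released by lipoprotein lipase, store them as triglyceride and secrete leptin and adiponectin. Between the adipocytes lie stromal progenitors, capillaries and macrophages in a collagen matrix, while liver has fenestrated sinusoids, stellate cells and Kupffer cells.

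The values are the deposited normalized log2 levels, so a difference of 1 is a 2-fold difference in signal. Replicate arrays correlated across all probes at a Pearson's r of 0.979 in liver, 0.979 in epididymal fat and 0.983 in inguinal fat, and liver correlated with fat at 0.870 to 0.888. The tissue labels were checked against defining markers: 19 of 20 hepatocyte genes were higher in liver and 14 of 14 white adipocyte genes lower. Genes of other tissues were also brighter in some fat arrays than in others. The hepatocyte list averaged 5.18 in epididymal replicate 1 and 6.25 in replicate 2, and 5.39 and 5.97 in the inguinal arrays, against 11.77 and 11.80 in liver. Of its 20 genes, 18 were brighter in epididymal replicate 2 than in replicate 1 and 17 in inguinal replicate 2. Over all tested genes the shares were 53.95% and 51.85%. The epididymal rise was not particular to hepatocyte genes. It was seen in 14 of 14 white adipocyte and 12 of 12 mesothelium genes (5 and 4 in inguinal fat), but in 1 of 15 macrophage genes. The median liver minus fat difference of the hepatocyte list was 6.77, and 7.14 with only replicate 1 of each depot on the fat side. Skeletal muscle genes averaged 9.39 in inguinal replicate 2, against 5.33 to 6.50 in the other wild-type arrays. The part of these hepatocyte or muscle signals in the differences that follow was not tested, beyond these values and those given without the arrays.

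Most genes differed between the tissues. In limma's moderated test with Benjamini-Hochberg adjustment, called here at an adjusted p under 0.05, 2943 genes were higher in liver, 23.2% of those tested, and 4319 were lower, 34.0%. Of the 7262 calls, 40.5% were thus higher in liver. That split depends on the scale: with each array centred on its ribosomal protein genes, which moves the median difference of tested genes from -0.13 to 0.11, the calls were 3652 higher and 2594 lower, so that 58.5% were higher. The 4 fat arrays all lay below both liver arrays in 3451 genes, 27.2% of those tested, and all above them in 5019, 39.5%. Differences reached further on the liver side. Of the called genes 471 were higher in liver by at least 3 and 274 lower by at least 3, and at a size of 6 there were 150 higher and 13 lower. The plot of both tissues' levels shows a band of genes near the fat floor whose liver level is high. In 865 of the higher and 1100 of the lower genes the dimmer tissue's mean was under 5.71, the level that a gene had to pass in some tissue to be tested. At such dim levels the array's floor may limit the difference, and for how many of them it does was not tested. Without replicate 2 of both depots, 2597 genes were higher and 3984 lower, and 85.7% of the original calls were kept. With the spread estimated from the wild-type arrays alone the counts were 2685 and 3959.

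**Figure D1:**
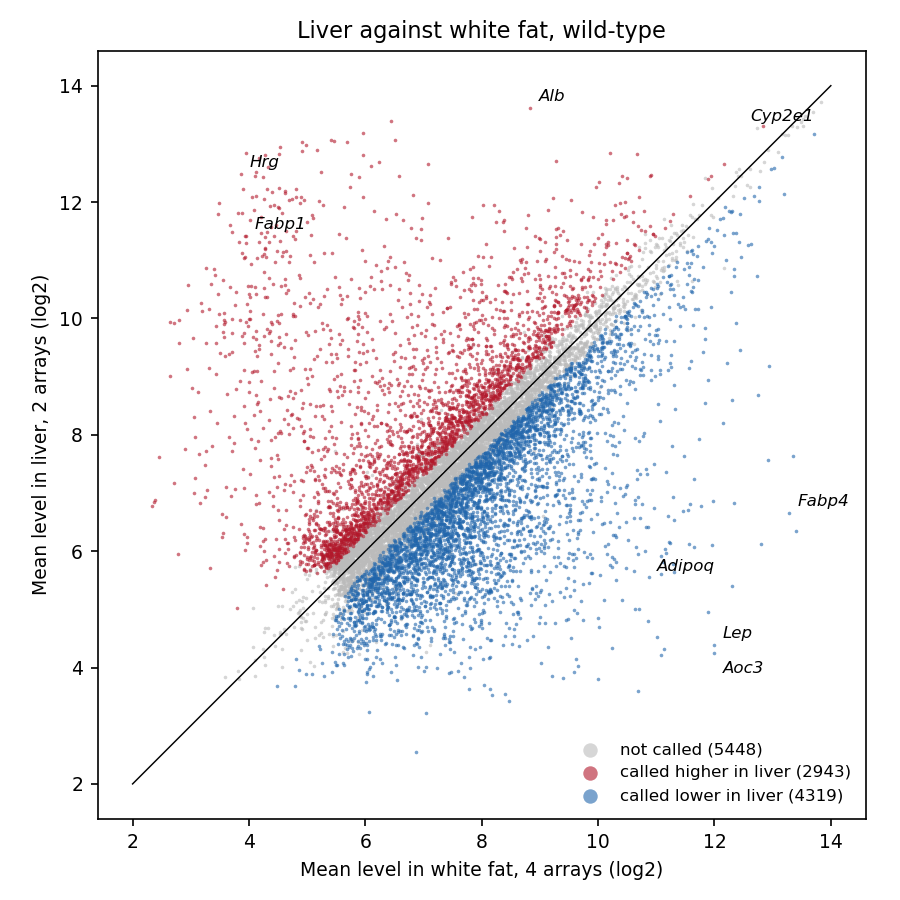
Mean log2 level in liver (2 arrays, vertical axis) against the mean over 4 fat arrays (horizontal axis), 1 point per tested gene. Red points were called higher in liver (2943), blue ones lower (4319) and grey ones not called (5448). The line marks equal levels, and the named genes are described in the text.

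The genes furthest above fat in liver encode products of hepatocytes. Ces1c, a carboxylesterase secreted into mouse plasma, read 12.90 and 12.79 in liver against 3.09 and 4.25 in epididymal and 3.87 and 4.62 in inguinal fat, a difference of 8.89 ± 0.30 (SE), or 475-fold. Both liver arrays lay far above all 4 fat arrays. Leading genes were picked only among those whose liver and fat arrays did not overlap. Hrg, the plasma histidine-rich glycoprotein, read 12.49 and 12.46 against 3.46, 4.26, 3.88 and 3.84, a difference of 8.61 ± 0.20. Hamp, which encodes the iron hormone hepcidin, read 12.78 and 12.75 in liver, and in fat 2.58 and 6.07 in the epididymal arrays and 3.21 and 4.81 in the inguinal ones. Its difference of 8.60 ± 0.78 has the widest error of the 15 leading genes, and replicate 2 was the brighter array in both depots. Slco1b2, a hepatocyte uptake carrier for bile acids and drugs, had no such spread: it read 12.01 and 11.95 against 3.63, 3.63, 3.45 and 3.21, a difference of 8.50 ± 0.13. The other leading genes were the protease inhibitors Mug1 (8.53 ± 0.43), Mug2 (8.34 ± 0.28) and Serpina1d (8.43 ± 0.61), the urinary pheromone protein Mup20 (8.40 ± 0.43), the fibrinogen chains Fgg (8.33 ± 0.56) and Fgb (8.30 ± 0.45), the P450 enzyme Cyp2j5 (8.32 ± 0.13), the esterase Ces3a (8.27 ± 0.21), Ambp (8.19 ± 0.16), Apob (8.11 ± 0.35) and Saa4 (8.03 ± 0.35). Several belong to families of near-identical genes (Mug, Mup, Serpina1, Ces), between which array probes can share signal.

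Toward fat, the largest differences were in genes of the adipocyte and of the cells around it. Aoc3, the amine oxidase of the adipocyte surface, read 4.48 and 4.02 in liver against 11.82 and 12.25 in epididymal and 12.04 and 11.85 in inguinal fat, a difference of -7.74 ± 0.19. Lep, the gene for leptin, read 4.25 and 4.53 against 11.92, 12.25, 11.82 and 11.98, a difference of -7.60 ± 0.16. The 4 fat arrays were close to each other in both genes and far above liver. Retn, encoding resistin, differed by -7.05 ± 0.20, the lipid droplet protein gene Cidec by -6.68 ± 0.30, and Fabp4, the fatty acid carrier of adipocytes, by -6.61 ± 0.16. Among less familiar fat genes were the lectin Lgals12 (-6.94 ± 0.26), the neutral amino acid carrier Slc1a5 (-6.89 ± 0.21), the sodium channel Scn7a (-6.86 ± 0.24), the protein kinase A subunit Prkar2b (-6.80 ± 0.22), the thyrotropin receptor Tshr (-6.49 ± 0.19), Glb1l2 (-6.20 ± 0.24), B3galt2 (-5.90 ± 0.23) and Sncg (-5.85 ± 0.22). Retnla and Gpnmb are genes of macrophages. Retnla, a marker of alternative activation, had a mean of 3.60 ± 0.58 (SD, n = 2) in liver and read 10.44 to 10.97 in fat, a difference of -7.09 ± 0.34. Gpnmb, a marker of lipid-laden macrophages, read 4.76 and 4.85 in liver, 12.68 and 11.09 in epididymal and 9.89 and 9.80 in inguinal fat, and was thus brighter in both epididymal than in both inguinal arrays.

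**Figure D2:**
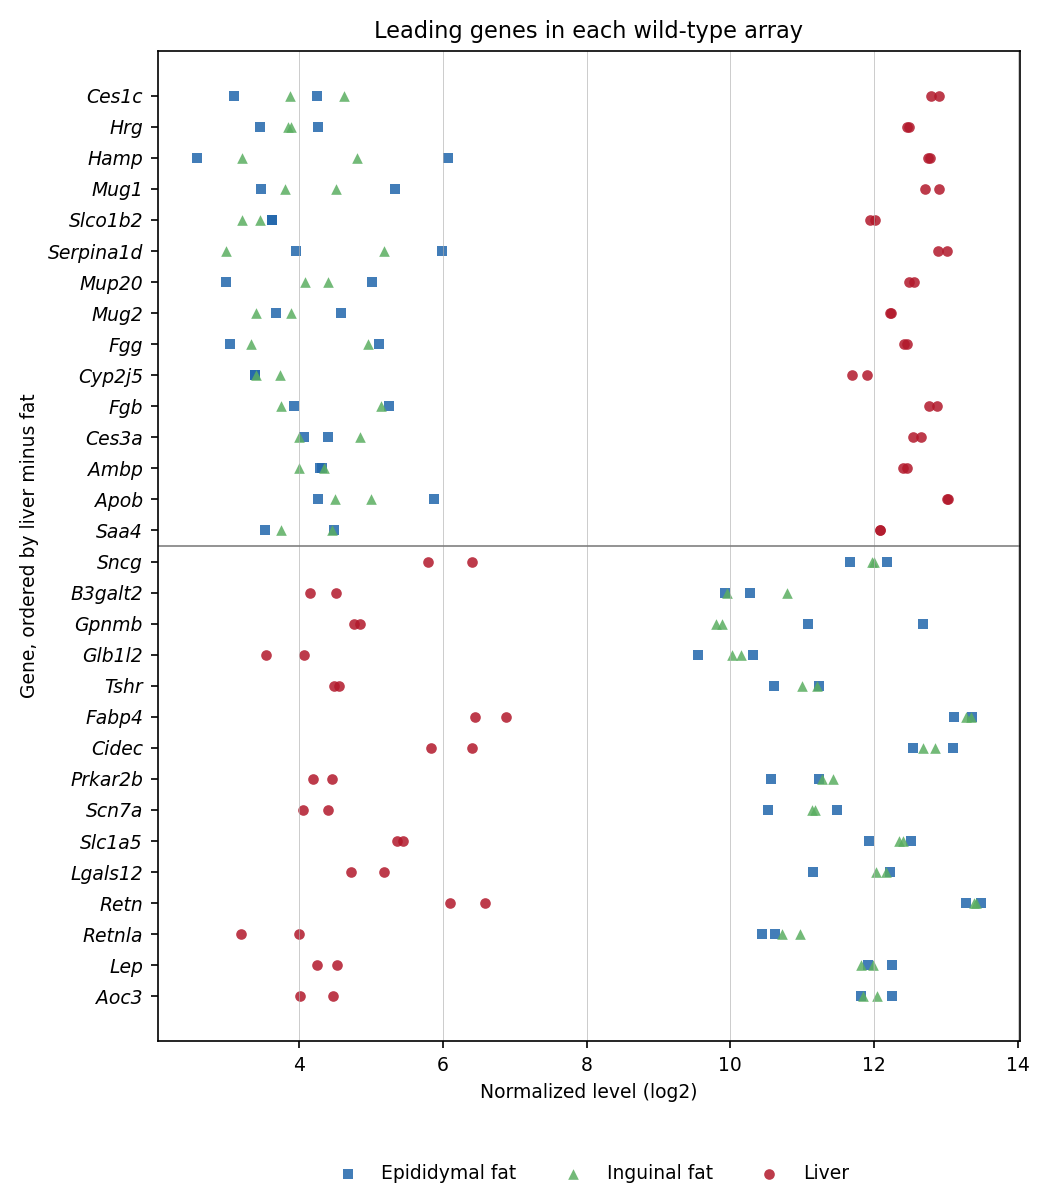
Normalized log2 level of the 15 genes most above and the 15 most below fat in liver, in each of the 6 wild-type arrays (red circles liver, blue squares epididymal fat, green triangles inguinal fat). Liver and fat arrays do not overlap in any of the 30 genes, and the fat arrays of Hamp reach from 2.58 to 6.07.

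Promoters are printed for 4 genes to show what the letters counted next look like: 3 of hepatocyte genes that hold a motif known for hepatocyte factors, and leptin's as a contrast. Alb is not among the 100 largest rises, so its match is not in the share given for them. Each runs from 250 bases before to 50 after the RefSeq gene start on GRCm38.p6, in lower case with the motif found in capitals. All 4 lie on the plus strand: Alb at chr5:90460620-90460919, Slco1b2 at chr6:141629268-141629567, Fga at chr3:83025903-83026202 and Lep at chr6:29059971-29060270.
Alb: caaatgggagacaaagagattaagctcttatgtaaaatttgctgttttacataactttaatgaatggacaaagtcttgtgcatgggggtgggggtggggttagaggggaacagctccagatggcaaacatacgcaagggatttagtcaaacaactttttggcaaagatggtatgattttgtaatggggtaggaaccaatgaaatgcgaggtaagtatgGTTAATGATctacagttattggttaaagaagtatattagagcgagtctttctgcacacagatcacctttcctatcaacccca
Slco1b2: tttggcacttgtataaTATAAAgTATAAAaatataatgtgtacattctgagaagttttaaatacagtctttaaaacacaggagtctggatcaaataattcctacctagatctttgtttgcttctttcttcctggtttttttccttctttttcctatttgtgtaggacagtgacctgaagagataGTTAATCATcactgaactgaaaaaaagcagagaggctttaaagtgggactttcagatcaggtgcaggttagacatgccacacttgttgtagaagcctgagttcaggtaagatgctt
Fga: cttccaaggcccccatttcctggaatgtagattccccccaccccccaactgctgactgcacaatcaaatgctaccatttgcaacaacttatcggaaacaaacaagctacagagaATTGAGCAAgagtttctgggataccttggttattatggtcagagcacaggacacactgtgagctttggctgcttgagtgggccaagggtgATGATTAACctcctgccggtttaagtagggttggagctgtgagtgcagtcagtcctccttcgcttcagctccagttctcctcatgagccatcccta
Lep: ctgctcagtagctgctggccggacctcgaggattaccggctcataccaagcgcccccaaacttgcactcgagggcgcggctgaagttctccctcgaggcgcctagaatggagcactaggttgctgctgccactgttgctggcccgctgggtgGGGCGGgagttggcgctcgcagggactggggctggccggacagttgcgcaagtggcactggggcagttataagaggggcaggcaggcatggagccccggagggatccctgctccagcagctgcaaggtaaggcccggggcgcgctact
The capitals mark HNF1 letters (GTTAATNAT) 32 bases before the start in Alb, 66 in Slco1b2, where TATAAA also occurs 234 and 227 bases before it, and 46 in Fga. In Fga the match is on the minus strand, and a C/EBP match (TTGCNNAAT, also minus) begins 136 bases before the start. In Lep they mark the GC box of Sp1 (GGGCGG) 98 bases before it.

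Both strands were searched in the promoters of the 100 largest rises and 100 largest falls toward liver; RefSeq held a promoter for 79 and 70 of them and for 9956 of the tested genes. HNF1 letters were found in 7.59% of the promoters of the rises, in 0 of the 70 of the falls and in 0.583% of all. HNF4 letters (CAAAGTCCA) were in 3.80%, 1.43% and 0.472% in the same order, and C/EBP letters in 8.86%, 0 of 70 and 1.71%. TATAAA at any place in the window was in 30.4%, 24.3% and 7.95%, and was thus more frequent at both ends than overall. The GC box went the other way, with 7.59%, 45.7% and 62.3%, and so did the median number of CpG per 100 bases, with 1.0, 2.5 and 6.67. None of these shares was tested, and a match of letters is no proof that a factor binds there.

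Plasma proteins were mostly on the liver side. All 16 clotting genes on the array were called higher in liver, with a median of 6.49 against 0.08 over all 22180 genes; besides Fgg and Fgb they include Fga, the third fibrinogen chain (7.98 ± 0.42), and plasminogen, Plg (7.53 ± 0.27). Of 21 carrier and inhibitor proteins 20 were higher, with a median of 6.96. The exception was Hp, haptoglobin, which read 12.59 and 12.56 in liver, 12.53 and 12.96 in epididymal and 12.31 and 12.63 in inguinal fat. Its difference was -0.03 ± 0.23 with a 95% interval from -0.55 to 0.48, and its sign changes with the scale, being 0.21 with the ribosomal centring. The arrays of both tissues overlap for this hemoglobin-binding plasma protein. Alb, albumin, was the brightest of these genes in liver at 13.60 and 13.64, and read 6.51 to 9.88 in fat, lowest in epididymal replicate 1, a difference of 4.78 ± 0.64 that is small beside those of the leading genes. Complement was mostly on the liver side as well. Of 17 plasma complement genes 13 were higher in liver, 1 was lower and 3 were not called, with a median of 5.10. Among the higher ones were Hc, which encodes component C5 (7.57 ± 0.18), Cfi (7.30 ± 0.25) and C9 (7.13 ± 0.17). The lower gene was Cfp, properdin, made by myeloid cells (-1.13 ± 0.25).

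Lipoprotein genes divided by role. Of 21 on the array 14 were higher in liver and 5 lower. The apolipoproteins that build very low and high density particles were higher: Apob by 8.11, Apoa2 by 6.56 ± 0.31, Apoa1 by 6.52 ± 0.40 and Apoa5 by 6.51 ± 0.14. The genes that serve uptake of triglyceride in the periphery were lower: Lpl, lipoprotein lipase, read 7.65 and 7.63 in liver against 13.37, 13.34, 13.42 and 13.27 in fat (-5.71 ± 0.20), and Vldlr, the very low density lipoprotein receptor, differed by -2.72 ± 0.16.

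Nitrogen metabolism lay almost wholly on the liver side. Of 30 genes of the urea cycle and amino acid breakdown on the array 29 were higher, with a median of 5.40, and the other was too dim to test. Cps1, the entry enzyme of the urea cycle, read 12.92 and 12.87 in liver and 4.71 to 5.73 in fat (7.72 ± 0.22). Otc, the next enzyme, differed by 7.78 ± 0.19, and Hgd of tyrosine breakdown by 7.69 ± 0.14. Mat1a, which makes S-adenosylmethionine in liver, read 13.05 and 12.93 there and 4.43 to 5.73 in fat.

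Of 20 genes of glucose production, glycogen and fructose 16 were higher in liver and 2 lower, with a median of 2.93. G6pc, whose enzyme releases free glucose, read 12.42 and 11.76 against 4.77 to 5.09 in fat (7.20 ± 0.24), Fbp1 of gluconeogenesis differed by 6.80 ± 0.21, the glucose carrier Slc2a2 by 6.67 ± 0.14 and Gckr, the glucokinase regulator, by 5.88 ± 0.14. Pck1, the cytosolic phosphoenolpyruvate carboxykinase, was not called. It read 12.31 and 12.52 in liver, 10.60 and 11.94 in epididymal and 12.34 and 12.46 in inguinal fat, a difference of 0.59 ± 0.29 (limma adjusted p = 0.110). It was called against epididymal fat alone (1.15), without epididymal replicate 2 (0.92), without replicate 2 of both depots (0.95), with cyclic loess (0.76) and with the ribosomal centring (0.83). Adipocytes use this enzyme to make the glycerol of triglyceride. Its mitochondrial form Pck2 was lower in liver (-1.63 ± 0.13).

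Ketogenesis and fatty acid oxidation had a smaller margin: 13 of 19 genes were higher, with a median of 1.01. Slc27a2, a very long chain acyl-CoA synthetase, led with 7.55 ± 0.24, followed by Bdh1 of ketone body synthesis (3.61 ± 0.24), Ppara, the receptor of the program (3.33 ± 0.18), and the peroxisomal thiolase Acaa1b (3.30 ± 0.24). Hadhb, a subunit of the mitochondrial trifunctional protein, was lower in liver (-0.67 ± 0.17) but dim in every array (4.82 to 5.85), and was not called without liver replicate 1 (-0.53), against epididymal fat alone (-0.50) or with the ribosomal centring (-0.43).

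Bile acid genes were higher in liver in 22 of 23 cases, with a median of 5.09, and the other was too dim to test. Cyp7a1, the rate-limiting enzyme of bile acid synthesis, read 10.87 and 10.31 in liver and 3.16 to 3.54 in fat (7.24 ± 0.18), the canalicular export pump Abcb11 differed by 7.93 ± 0.16 and the uptake carrier Slc10a1 by 7.38 ± 0.13. Cytochrome P450 enzymes were higher in 29 of 32 cases, with a median of 5.43. They were led by Cyp2j5, Cyp2c29 (11.90 and 11.72 in liver, 3.48 to 4.13 in fat), Cyp2c70 (a difference of 7.78 ± 0.25) and Cyp2a12 (7.50 ± 0.17). Cyp1b1, a P450 enzyme expressed outside liver, was lower (-3.15 ± 0.31). Cyp2e1, which metabolises ethanol, read 13.33 and 13.21 in liver, but also 12.15 and 13.14 in epididymal and 12.70 and 12.90 in inguinal fat, and its difference of 0.54 ± 0.23 was not called (limma adjusted p = 0.0669). It was called without epididymal replicate 2 (0.79), without replicate 2 of both depots (0.85), with cyclic loess (0.72), with the ribosomal centring (0.79) and with array weights (0.54). Of 30 genes listed as conjugating enzymes 26 were higher, with a median of 1.64. Ugt2b1 (7.93 ± 0.26) and the sulfotransferase Sult2a8 (7.60 ± 0.20) led. Fmo2, a flavin monooxygenase that the list also holds, was lower (-2.49 ± 0.23).

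Transcription factors of hepatocytes were higher in 20 of 23 cases, with a median of 3.23. They include Nr1i3, the xenobiotic receptor CAR (5.47 ± 0.23), Onecut1 (5.34 ± 0.22), Prox1 (5.01 ± 0.25) and Hnf4a, the central regulator of hepatocyte genes (4.98 ± 0.22), which read 10.32 and 10.75 in liver and 5.32 to 6.03 in fat. Cebpa, which both hepatocytes and adipocytes need, was not called, at 9.79 and 9.82 in liver, 9.58 and 9.99 in epididymal and 10.44 and 9.90 in inguinal fat; its difference of -0.18 ± 0.19 turns to 0.066 with the ribosomal centring. Of 20 hepatokines and liver hormones 17 were higher, among them Ahsg, fetuin A (7.22 ± 0.52), Fetub (7.15 ± 0.34) and Serpina6, the corticosteroid carrier (6.93 ± 0.24).

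Adipocyte identity and lipid droplet genes were the mirror image, with 31 of 35 lower in liver, 1 higher and a median of -3.80. Besides Lep, Retn, Cidec and Fabp4, Plin1, the coat protein of the adipocyte droplet, read 5.95 and 5.34 in liver and 10.82 to 11.68 in fat (-5.66 ± 0.24), and Adipoq, adiponectin, read 5.56 and 5.54 against 10.42 to 11.08 (-5.32 ± 0.32). The gene called higher was Plin5, the droplet protein of oxidative tissues (2.69 ± 0.20). Of 22 adipocyte transcription factors 14 were lower and 4 higher, where 34.0% and 23.2% of all tested genes were. The count of higher ones is thus near the share over all tested genes. Ebf1, a factor of adipocytes and their progenitors, had the largest difference (-5.64 ± 0.31), then the positional homeobox gene Hoxc8 (-5.15 ± 0.22), and Pparg, the adipocyte master regulator, read 7.52 and 6.09 in liver and 10.23 to 10.99 in fat (-3.83 ± 0.35). Klf15 was among those higher in liver (1.83 ± 0.34). Of 22 adipokines and other signals from fat 15 were lower; Fgf1 (1.60 ± 0.21) and Igf1 (0.66 ± 0.17) were higher, and Igf1 was not called without liver replicate 1 (0.59).

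Of 35 extracellular matrix genes 32 were lower in liver and 1 higher, with a median of -3.47. The fibrillar collagens led: Col3a1 read 6.42 and 5.89 in liver, 10.82 and 10.63 in epididymal and 11.80 and 11.60 in inguinal fat (-5.06 ± 0.21), and Col1a1 differed by -4.77 ± 0.20. Lox, which crosslinks collagen, differed by -4.64 ± 0.23. Col18a1, the basement membrane collagen that yields endostatin, was higher in liver (2.11 ± 0.15). Fn1, fibronectin, which hepatocytes secrete into plasma and stromal cells lay down as matrix, was not called: it read 12.48 and 12.43 in liver, 12.51 and 12.49 in epididymal and 12.42 and 12.40 in inguinal fat, and the 95% interval of its difference runs from -0.34 to 0.33.

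**Figure D3:**
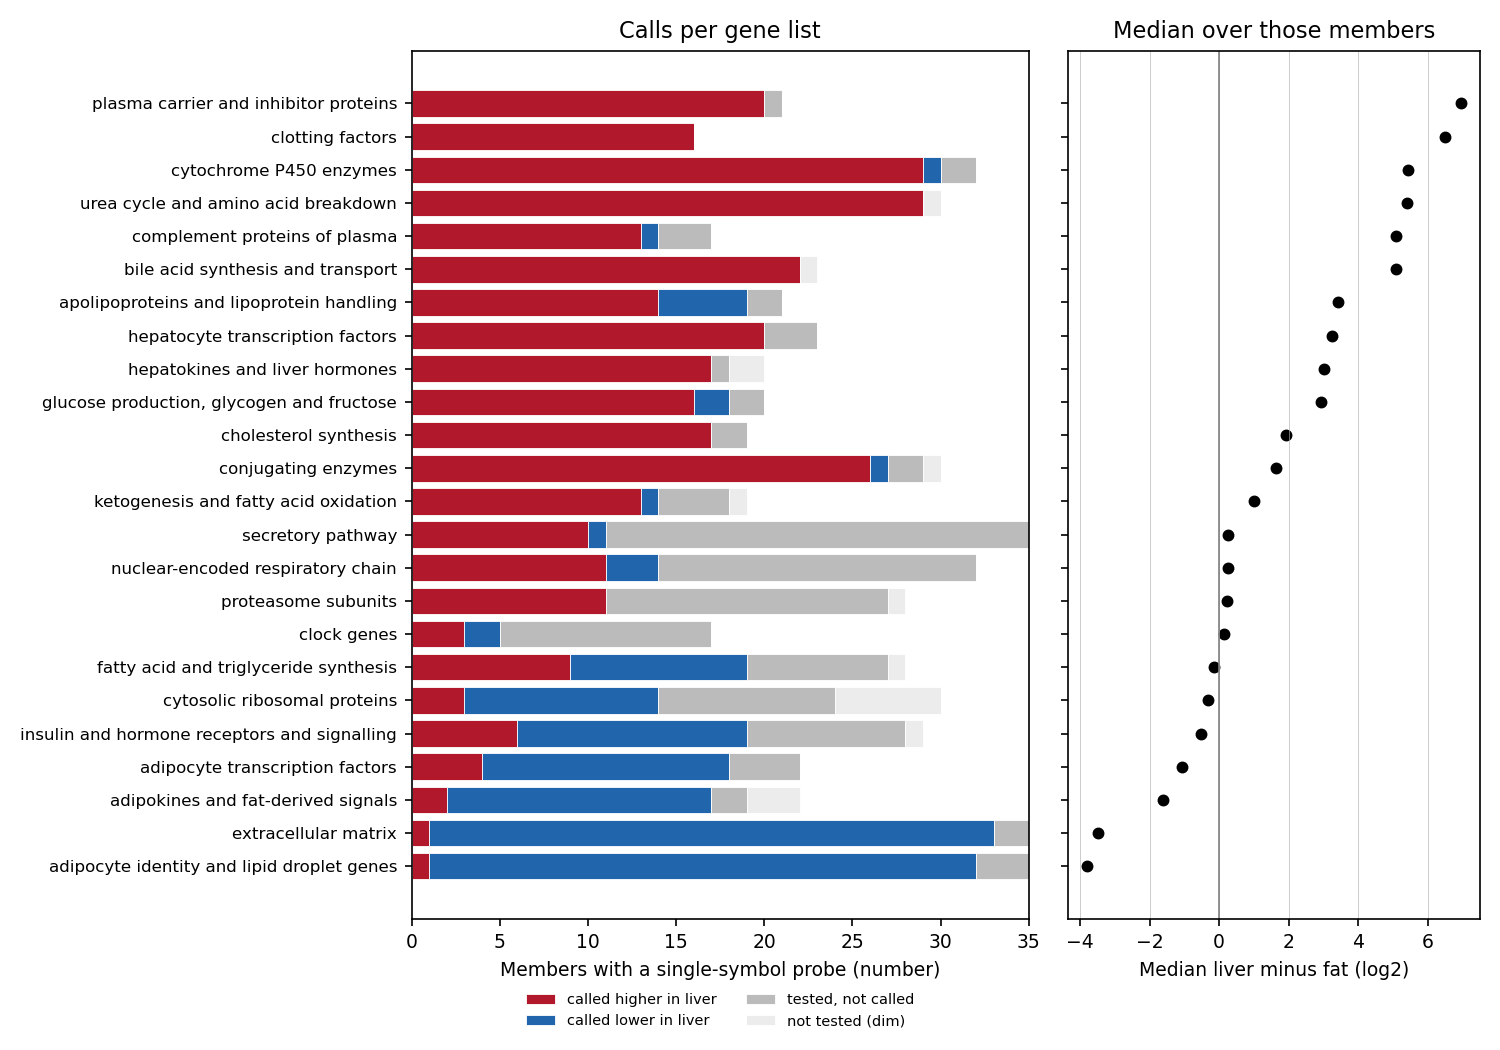
Left, number of members of each functional list with a single-symbol probe that were called higher (red) or lower (blue) in liver, tested without a call (grey) or too dim to test (pale); right, the median liver minus fat difference over the same members, in log2. Plasma proteins and P450 enzymes lie at one end and adipocyte and matrix genes at the other, with secretory, respiratory, proteasome and clock genes near 0.

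Several functions are carried out by both tissues. Cholesterol synthesis was higher in liver in 17 of 19 genes, with a median of 1.93, by amounts such as 2.99 ± 0.22 for Tm7sf2, 2.99 ± 0.25 for Fdps and 2.73 ± 0.34 for Cyp51; Srebf2, the factor that drives the pathway, was not called (0.33 ± 0.23), though it was without epididymal replicate 1 (0.53) and with the ribosomal centring (0.57). Of 28 genes that make fatty acids and triglycerides 9 were higher and 10 lower, shares near the 23.2% and 34.0% of all tested genes. The elongase Elovl3 read 12.27 and 12.18 in liver against 3.32 to 5.06 in fat (7.92 ± 0.45) and the desaturase Fads2 differed by 3.42 ± 0.42, whereas Pnpla3 (-5.47 ± 0.37) and the acyltransferases Gpat3 (-2.85 ± 0.22) and Dgat1 (-1.98 ± 0.16) were lower. Scd1, the main stearoyl-CoA desaturase, was bright in both tissues, at 12.71 and 12.83 in liver and 12.98 to 13.25 in fat, and its difference of -0.39 ± 0.12 was called. That call was lost without inguinal replicate 1 (-0.37), without liver replicate 1 (-0.33), without liver replicate 2 (-0.45), without replicate 2 of both depots (-0.35), against epididymal fat alone (-0.33), with cyclic loess (-0.21) and with the ribosomal centring (-0.15).

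Of 29 genes of hormone receptors and their signalling 6 were higher and 13 lower; over all tested genes the shares were 23.2% and 34.0%, so the counts say little about the group. Gcgr, the glucagon receptor, read 9.04 and 9.23 in liver and 4.82 to 5.16 in fat (4.17 ± 0.15), and the adrenergic receptor Adra1b differed by 3.93 ± 0.19. On the fat side were Npr3, which clears natriuretic peptides (-5.20 ± 0.27), the prostaglandin receptor Ptger3 (-3.55 ± 0.32), Fgfr1 (-3.20 ± 0.20) and Hcar2, the hydroxybutyrate receptor that restrains lipolysis (-2.63 ± 0.22). Insr, the insulin receptor, was not called, at 9.65 and 9.83 in liver and 8.96 to 9.73 in fat (0.23 ± 0.17), but was without epididymal replicate 2 (0.41) and without replicate 2 of both depots (0.42).

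Housekeeping groups differed by small amounts. Over all tested genes 23.2% were higher and 34.0% lower, and the counts here are to be read beside those shares. In the nuclear-encoded respiratory chain 11 of 32 genes were higher and 3 lower, with a median of 0.25, and Cox5a is an example (0.81 ± 0.13). Of 28 proteasome subunits 11 were higher and 0 lower, led by Psmd11 (0.82 ± 0.12). Of 35 secretory pathway genes 10 were higher, near the 23.2% of all tested genes, and 1 lower. The cargo receptor pair for clotting factors was among the higher ones, with Lman1 at 1.37 ± 0.14 and Mcfd2 at 1.26 ± 0.12, as was Sar1b, needed to export lipoprotein particles (1.14 ± 0.13). Of 30 ribosomal protein genes 3 were higher and 11 lower, the latter near the 34.0% of all tested genes, with a median of -0.31. These are the genes on which the alternative centring above sets the scale. Among 17 clock genes 3 were higher, with Bhlhe40 at 1.59 ± 0.19, and 2 lower, with Per3 at -1.19 ± 0.12. That centring shifts every difference by 0.24, which is of the order of these medians. On that scale 3652 of the 12710 tested genes were higher and 2594 lower. There 17 respiratory genes were higher and 1 lower, 14 proteasome genes were higher, and 16 secretory genes were higher and 0 lower. The clock counts stayed at 3 and 2. Of the ribosomal protein genes 4 were higher and 1 lower, a count that follows from centring on these same genes.

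Paired forms of an enzyme, carrier or receptor were compared next, with a member listed for liver and the other for fat or other tissues. Of 25 pairs listed 13 had both genes tested. In 7 of those the form listed for liver was higher and the other lower. Glucose entry paired Slc2a2 (6.67) with the insulin-regulated carrier Slc2a4 (-4.60 ± 0.22). Glycolysis ends in pyruvate kinase, where Pklr differed by 5.23 ± 0.17 and Pkm by -2.82 ± 0.20. The glycogen synthases Gys2 and Gys1 differed by 2.75 ± 0.44 and -3.03 ± 0.17, the fatty acid binding proteins Fabp1 and Fabp4 by 7.48 ± 0.38 and -6.61, and the fatty acid carriers Slc27a5 and Slc27a1 by 6.80 ± 0.25 and -3.98 ± 0.13. The remaining pairs of this kind were Plin5 with Plin1 and Ppara with Pparg, at the values given above. Gys2 was the least cleanly divided of them, since it read 9.39 and 8.59 in inguinal but 6.62 and 6.80 in epididymal fat, against 10.59 and 10.62 in liver. The aminotransferases Got1 (3.54 ± 0.24) and Got2 (2.30 ± 0.38) were both higher in liver. In the other 5 pairs at least 1 gene was not called. Pygm, the muscle glycogen phosphorylase, read 11.08 in inguinal replicate 2, the array with bright muscle genes, and 5.88 to 6.67 in the other fat arrays, against 5.24 and 5.33 in liver. It was not called with all arrays (-2.26 ± 1.21), but was without inguinal replicate 1 (-3.36).

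**Figure D4:**
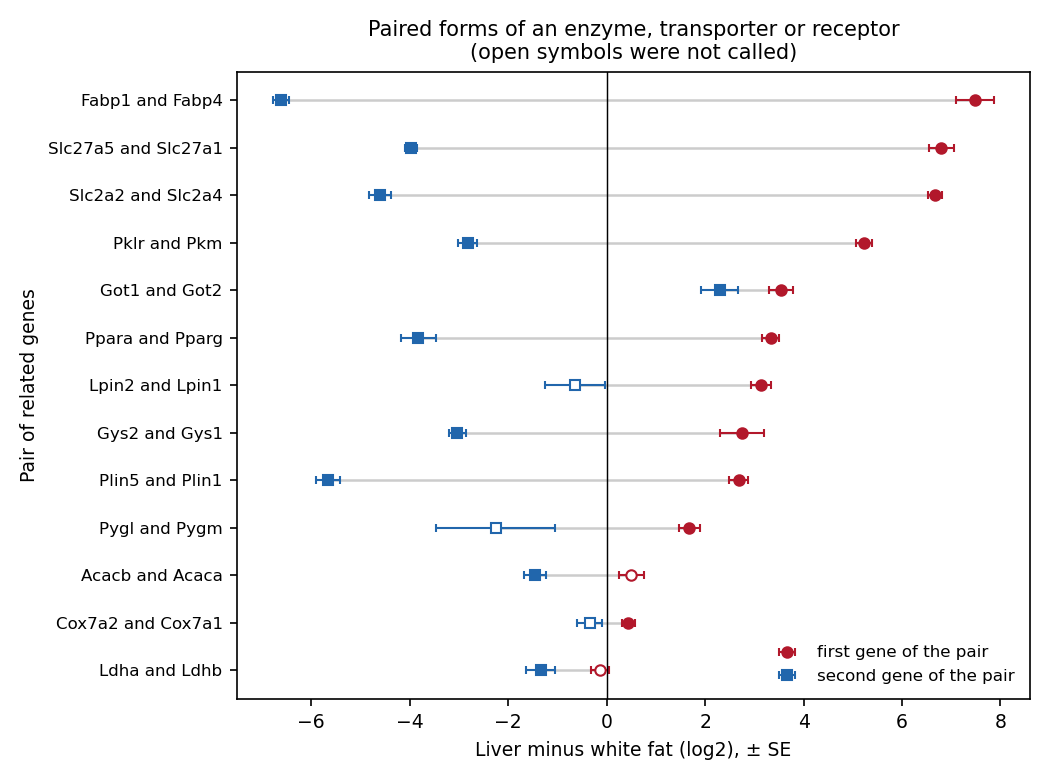
Liver minus white fat difference (log2, ± SE of the fit) for 13 pairs of related genes with both members tested; circles are the first gene of the pair, the form listed for liver, and squares the form listed for fat or other tissues. Open symbols were not called. In 7 pairs the circle lies right and the square left of 0, both called.

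Markers of the cells around hepatocytes and adipocytes divided by tissue as well. In whole tissue, fewer cells of a type and less RNA per cell cannot be told apart. Of 11 Kupffer cell genes 8 were higher in liver: Clec4f, the lectin of mouse Kupffer cells, read 8.93 and 8.59 in liver and 4.51 to 4.97 in fat (4.06 ± 0.14), and the complement receptor Vsig4 differed by 3.89 ± 0.23 and the iron exporter Slc40a1 by 3.29 ± 0.20. General macrophage genes went the other way, with 12 of 15 lower in liver and a median of -1.54. Lyz2, lysozyme, read 9.59 and 8.88 in liver, 12.74 and 12.35 in epididymal and 11.95 and 11.85 in inguinal fat (-2.99 ± 0.25), and Itgam, an integrin of monocytes and macrophages, differed by -4.10 ± 0.40. Of 15 genes of resident, alternatively activated macrophages of fat 11 were lower in liver, with Retnla, F13a1 (-4.93 ± 0.32) and Ccl6 (-4.00 ± 0.42) in front. The phagocytic receptor Timd4, which Kupffer cells also carry, was higher (1.90 ± 0.30), and Folr2, listed for both, was lower (-1.74 ± 0.21).

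Endothelium was mostly divided by its kind. Over all tested genes 23.2% were higher and 34.0% lower. Of 13 genes of liver sinusoidal endothelium 9 were higher, among them Clec4g (5.84 ± 0.16), the nuclease Dnase1l3 (4.70 ± 0.17) and the scavenger receptor Stab2 (3.99 ± 0.13). Another 3 of the 13 were called lower, and the lowest difference in the list was -1.71. Of 17 genes of the continuous capillaries of fat, a list that also holds adipocyte genes, 15 were lower and 0 higher, with a median of -1.20; Cd36, the fatty acid translocase, differed by -4.06 ± 0.13 and Emcn, endomucin, by -1.87 ± 0.21. Of 13 stellate cell genes 8 were higher, led by Lrat, which stores retinol (3.54 ± 0.24). Another 3 were lower, among them Dcn, decorin, which stromal cells of fat also make (-2.01 ± 0.21). Of 13 genes of stromal progenitors 11 were lower, with Sema3c at -4.80 ± 0.16 and Cd34 at -4.49 ± 0.18; Dpp4, also present on hepatocytes, was higher (1.25 ± 0.21). Mural cell genes were lower in 10 of 12 cases, with Mcam at -3.94 ± 0.19. Of 10 mast cell genes 7 were tested and 5 were lower. Cpa3, their carboxypeptidase, read 4.41 and 4.61 in liver, 8.30 and 8.84 in epididymal and 10.48 and 10.49 in inguinal fat. Of 9 nerve and Schwann cell genes 6 were tested and 4 were lower. Over all tested genes 34.0% were lower, so the counts of these short lists say little about either group. Nrn1, listed with nerve genes, was higher, at 11.79 in both liver arrays against 5.63 to 7.53 in fat (5.26 ± 0.13).

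Other lists had few calls. Of 16 muscle genes 12 were tested and not called and 1 passed in each direction. Of 13 genes of epididymal duct and testis 0 were called in either direction and 7 were tested. The list's mean was 4.52 and 4.67 in the wild-type epididymal arrays and 4.85 and 4.93 in liver, under the filter level, but 9.47 in epididymal Mgl2-DTR replicate 2, an array that enters the filter and the SE of these genes. Of 11 B cell genes 4 were tested and 2 were lower, and of 12 T and NK cell genes 7 were tested and 3 were lower. The rest of both lists were too dim to test. Over all tested genes 34.0% were lower, so these counts say little about either group. Il7r, the interleukin-7 receptor, was among the T and NK cell genes called lower and was brightest in epididymal fat. It read 10.41 and 8.62 in epididymal and 6.51 and 6.97 in inguinal fat, against 4.20 and 4.13 in liver.

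Each depot against liver gave counts of a like order; both share the liver arrays, so the values are set side by side. Against epididymal fat 2761 genes were higher in liver (21.7%) and 4144 lower (32.6%), and against inguinal fat 2510 (19.7%) and 3564 (28.0%). In 203 genes both liver arrays lay above both arrays of a depot and below both of the other, where the average over depots describes neither. An example is Upk3b, a uroplakin of the mesothelium that covers epididymal fat. It read 6.21 and 6.29 in liver, 9.45 and 10.52 in epididymal and 5.93 and 5.59 in inguinal fat. Cidea, the droplet protein of brown and beige adipocytes, read 4.88 and 5.04 in liver, 4.64 and 4.99 in epididymal and 8.72 and 8.43 in inguinal fat. Its liver and epididymal arrays overlap, so it is not among the 203 genes, but its difference came from inguinal fat alone. Cox8b, the respiratory subunit of the same cells, was likewise an inguinal gene, at 8.99 and 8.93 there against 5.32 and 5.48 in epididymal fat and 4.66 and 4.59 in liver. Its liver arrays lay below those of both depots, so it is not among the 203 genes either. The list of brown and beige adipocyte genes did not go 1 way. Of its 11 genes 4 were higher in liver and 2 lower, with a median of 0.17. Over all tested genes 23.2% were higher and 34.0% lower. Elovl3 and Slc27a2, described above, were among the higher ones.

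The levels of the Mgl2-DTR arrays gave the same difference in 6 other arrays, although the tests of both genotypes share the set of genes tested and the estimate of the spread, so that their calls are not independent. Genes of other tissues were bright in some of these arrays too. Duct and testis genes averaged 9.47 in epididymal replicate 2 (4.71 in replicate 1) and muscle genes 9.11 in inguinal replicate 1 (6.42 in replicate 2). The part of these genes in the overlap of calls was not tested. There 2529 genes were higher in liver (19.9%) and 4286 lower (33.7%). Of the wild-type calls 2242 genes were higher in both, 76.2% of the wild-type and 88.7% of the Mgl2-DTR list, and 3555 were lower in both, 82.3% and 82.9%. In 11 genes the genotypes' calls were opposite. Across the tested genes, which are not independent replicates, the differences of both genotypes correlated at a Pearson's r of 0.963. Ces1c differed by 9.56, Slco1b2 by 8.68, Aoc3 by -8.44 and Lep by -7.90 in the Mgl2-DTR arrays. The tissue difference itself depended on genotype in 30 genes, 0.236% of those tested, by limma's test of the interaction. Among genes already described these were Retnla, whose difference was -7.09 in wild-type and -3.48 in Mgl2-DTR mice (limma adjusted p = 0.0202), Folr2, with -1.74 and 0.73 (limma adjusted p = 0.0127), Vsig4, with 3.89 and 6.15 (limma adjusted p = 0.0254), and Onecut1, with 5.34 and 3.27 (limma adjusted p = 0.0325). The macrophage lectin Cd209g differed by -3.55 and 0.14 (limma adjusted p = 0.0107).

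**Figure D5:**
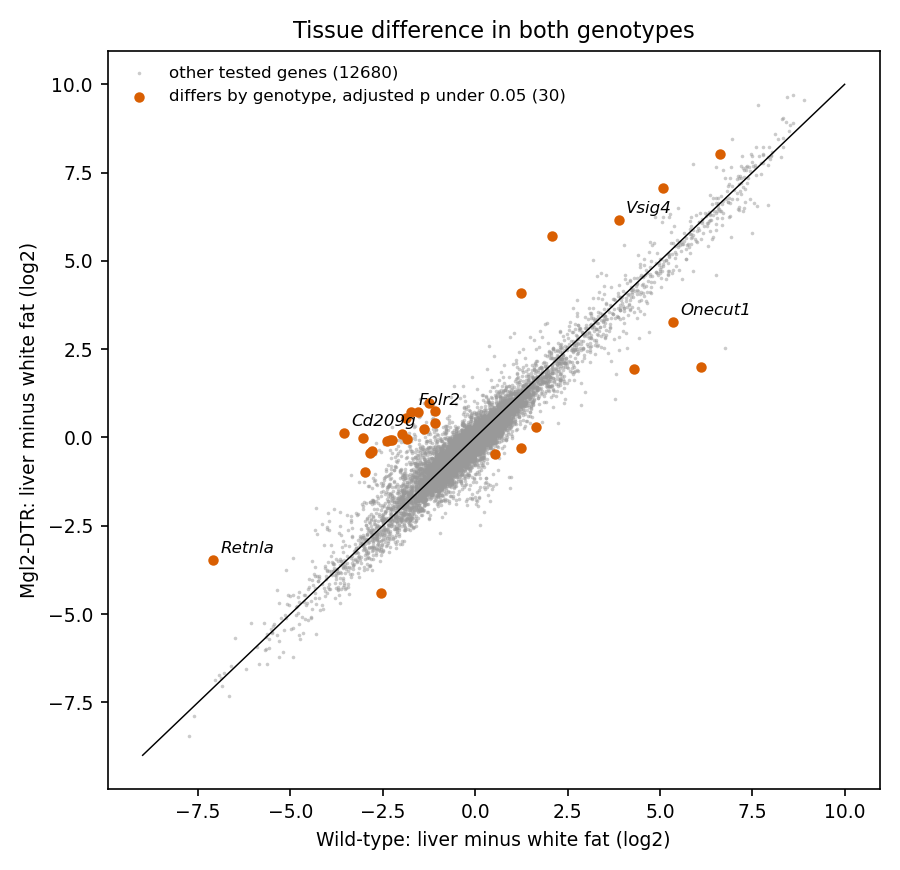
Liver minus white fat difference (log2) in Mgl2-DTR arrays against that in wild-type arrays, 1 point per tested gene, with the line of equal differences. Orange points are the 30 genes whose difference depended on genotype at an adjusted p under 0.05; Retnla and Cd209g lie above the line and Onecut1 below it.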

How the data were processed

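RNA levels of wild-type liver, epididymal fat and inguinal fat were compared on Affymetrix gene arrays, 2 per group. The values are log2 levels that the authors normalized and deposited, with medians per array of 5.19 to 5.28; the submitters' processing notes name limma, and the steps before that were not given in the sources used here. Precision is limited by the number of arrays.

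Of 41345 probes, 23521 carry 1 symbol in the platform annotation, 1814 several and 16010 none listed; 23328 of the single-symbol probes were matched to RefSeq by Entrez identifier, which changed 0 symbols. The brightest such probe stood for each of 22180 genes, and 12710 genes were tested because their mean in some tissue, over its 4 arrays of both genotypes, was above 5.71, the median of all values of such probes. With limma 3.58.1 in R 4.3.3, 1 mean per group was fitted on all 12 arrays (6 residual and 3.35 prior degrees of freedom, eBayes without trend), so the spread is shared by all 6 groups. Tests are two-sided with Benjamini-Hochberg adjustment over the genes tested. SE is that of the fitted difference. The script was tested on simulated data.

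Lists are described by counts over the members with a single-symbol probe and by medians, with no set test. The members and lists were chosen with earlier results of these data known. Genes named are the 15 largest differences in each direction among called genes whose arrays do not overlap (no predicted genes, small RNAs or immunoglobulin segments, and at most 2 of a symbol stem), up to 4 called members of each list in its main direction and 2 in the other, listed pairs, members nearest 0 in lists of shared functions, and motif holders. Hp, Cebpa, Cyp2e1, Pck1, Fn1 and Alb were named after their values were seen. Promoters are RefSeq's on GRCm38.p6, the first listed per gene. Alternatives were other filters, probe choices, scalings, variance models, thresholds, blocks, each depot alone, and leaving out arrays.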

Additional observations from a re-analysis of the deposited data

Results flagged for a closer look

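In 5 of the genes described, the tissue difference itself depended on genotype by limma's interaction test over all genes. The Mgl2-DTR minus wild-type change in the liver minus fat difference was 3.69 ± 0.38 (SE) for Cd209g (limma adjusted p = 0.0107), 2.47 ± 0.30 for Folr2 (limma adjusted p = 0.0127) and 3.61 ± 0.48 for Retnla (limma adjusted p = 0.0202), all genes of resident macrophages of fat. It was 2.26 ± 0.32 for the Kupffer cell gene Vsig4 (limma adjusted p = 0.0254) and -2.08 ± 0.31 for the hepatocyte factor Onecut1 (limma adjusted p = 0.0325).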

How the results depend on the processing

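Higher and lower counts were 2943 and 4319, and stayed within 1.5 times of these except as follows. Without a filter on dim genes 4464 were higher, with the filter at the 75th percentile 1922, and with a difference of at least 2-fold 1337 and 2089. With ribosomal centring 2594 were lower. Leaving out each array gave 2213 to 2893 higher and 3183 to 4404 lower, where the array left alone in its group is taken to scatter as the other groups do. With the replicate block the counts were 2921 and 4307; same-numbered wild-type arrays of different tissues deviated together at r of 0.033 to 0.097, so the labels' numbers were not taken to pair them. No other alternative changed a count by over 1.5 times.

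Of 145 called genes in the text, 3 kept their direction but lost the call in some alternative (Hadhb, Igf1 and Scd1), and 2 more changed sign, both with a depot alone: Cidea at 0.14 against epididymal fat and Upk3b at 0.49 against inguinal fat. Among genes not called, Cebpa was 0.066 with ribosomal centring and 0.017 against epididymal fat. Fn1 was 0.17 with cyclic loess, 0.24 with ribosomal centring, 0.042 against inguinal fat and -0.030 to 0.021 when each array was left out. Hp was 0.14, 0.21 and 0.10 in the same settings, 0.16 without replicate 2 of both depots, which was added after the data were seen, and -0.14 to 0.075 when each array was left out. The cause of these changes was not tested.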
